A study of Mus musculus with 6 samples.

Results

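RNA of 10 genes that encode receptors of fibroblast growth factor (FGF) and hepatocyte growth factor (HGF), the ligand HGF, and feedback inhibitors of these receptors was measured in muscle stem cells (MuSCs) by RNA-Seq. The genes were taken by symbol from the 49671 genes listed, and are Fgfr1, Fgfr2, Fgfr3, Fgfr4, Met, Hgf, Spry1, Spry2, Spry4, and Dusp6. MuSCs came from 6 female C57BL/6 mice aged 4 to 6 months with no genetic change stated. Both tibialis anterior (TA) muscles of each mouse were injured by injection of 1.2% BaCl2, a salt that kills myofibers, and were pooled at day 3 after injury, so that each mouse gave 1 library. In the RvD1 group, 3 mice received a daily IP injection of 100 ng of resolvin D1, a lipid mediator that helps end inflammation. In the vehicle group, 3 mice received 0.1% ethanol in saline. FACS kept cells with surface β1-integrin and CXCR4 that lacked CD45, CD11b, Ter119, and Sca-1, and the sample labels add CD31 to the markers selected against. The comparison asked whether RvD1 changed these transcripts in the stem cells of injured muscle.

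Libraries held between 16148026 and 28149176 expected counts. Genes of MuSCs were present in every library, among them Myod1 at 239 to 470.0 TPM (a level scaled for transcript length and library size) and Pax7 at 4.03 to 8.5 TPM, and summed levels of 10 MuSC genes ranged from 2590 to 2890 TPM with RvD1 and from 2410 to 2680 TPM with vehicle. Transcripts of other cells were also found. Summed levels of 8 fibro-adipogenic genes ranged from 239 to 545 TPM with RvD1 and from 269 to 316 TPM with vehicle. Those of 10 macrophage genes ranged from 31.1 to 55.6 TPM with RvD1 and from 45.8 to 84.3 TPM with vehicle, and those of 6 endothelial genes from 4.9 to 8.54 TPM and from 3.77 to 13.1 TPM. The neutrophil genes Ly6g, S100a9, and Retnlg were at 0 counts in every library. In such bulk RNA, a smaller share of a cell type and less RNA per cell cannot be told apart.

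FGFs and HGF are growth factors that draw MuSCs out of quiescence and drive them to divide after injury. FGFs bind the tyrosine kinase receptors encoded by Fgfr1 to Fgfr4, and HGF binds the tyrosine kinase Met, and both kinds of receptor activate the RAS-ERK cascade. ERK activity in turn induces genes that restrain the cascade. These include the Sprouty genes, whose proteins act between the receptor and ERK, and Dusp6, a phosphatase that inactivates ERK. Spry1 is known for its part in the return of MuSCs to quiescence.

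The sequences before the gene starts of 3 feedback genes are shown because such genes are known targets of the cascade whose receptors are described here. RefSeq promoter sequences on GRCm38.p6, taken by symbol, were examined for 8 of the 10 genes. Promoters of Fgfr1 and Spry4 were not examined. Each line gives the 250 bases before the gene start, 5′ to 3′ on the strand of the gene, with matched motifs in capitals.
Dusp6: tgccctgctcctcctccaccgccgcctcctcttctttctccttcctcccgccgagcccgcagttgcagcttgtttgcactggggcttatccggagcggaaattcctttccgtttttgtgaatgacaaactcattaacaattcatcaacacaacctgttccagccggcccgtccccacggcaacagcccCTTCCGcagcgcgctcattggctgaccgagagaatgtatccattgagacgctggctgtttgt
Spry1: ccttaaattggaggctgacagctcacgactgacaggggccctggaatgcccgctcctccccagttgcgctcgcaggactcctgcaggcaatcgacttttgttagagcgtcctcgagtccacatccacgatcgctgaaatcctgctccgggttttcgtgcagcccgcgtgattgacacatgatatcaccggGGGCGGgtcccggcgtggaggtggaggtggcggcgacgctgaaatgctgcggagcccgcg
Spry2: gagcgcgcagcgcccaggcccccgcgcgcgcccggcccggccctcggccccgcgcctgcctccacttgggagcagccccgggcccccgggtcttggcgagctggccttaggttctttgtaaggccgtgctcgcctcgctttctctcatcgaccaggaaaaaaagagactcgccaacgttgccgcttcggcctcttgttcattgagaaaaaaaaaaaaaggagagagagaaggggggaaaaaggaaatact
These stretches lie at chr10:99262981-99263230 (plus strand) for Dusp6, chr3:37639697-37639946 (plus strand) for Spry1, and chr14:105896820-105897069 (minus strand) for Spry2. The motifs were searched on both strands. They were CGGAAG, the core bound by ETS factors, some of which are ERK targets, and CAGCTG, an E-box bound by myogenic factors, which reads the same on both strands. The GC box was searched as GGGCGG, the box of TATA-binding protein as TATAAA, and the site of AP-1 factors as TGANTCA. No matches overlapped in the printed stretches. Dusp6 held 1 ETS core, written on the other strand as CTTCCG, between 62 and 57 bases before its start, and 13.6% of all 32851 promoters held that motif. Spry1 held 1 GC box, 60 to 55 bases before its start, which 32.7% of all promoters held. Spry2 held none of the 5 motifs. Among the receptors, Met held 3 GC boxes and 1 AP-1 motif (6.75% of all promoters), Fgfr4 held 2 GC boxes, and Fgfr2 none of the motifs. Fgfr3 has 2 RefSeq promoters, which held 3 GC boxes with 1 E-box (13% of all promoters) and 2 overlapping GC boxes. GC content was 56.4% for Dusp6, 62.4% for Spry1, and 62.4% for Spry2, against a median of 52.4% over all promoters.

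Levels of the 10 genes covered a wide range in MuSCs at day 3, with Fgfr4 and Met at the top and Hgf at the bottom. Over the 6 libraries, the mean was 144 TPM for Fgfr4 and 138 TPM for Met. The range of Fgfr4 (107 to 199.7 TPM) enclosed that of Met (123 to 155 TPM), and each was the higher gene in 3 libraries. Fgfr1 (mean 66.3 TPM) and Spry1 (64.7 TPM) followed and were likewise not separable, with Fgfr1 the higher in 3 libraries. Both lay below Met in every library. Dusp6 was next at 33 TPM, below Spry1 in all 6 libraries. Spry4 (12.2 TPM) exceeded Spry2 (9.24 TPM) in all 6 libraries, although their ranges overlapped. Fgfr3 (3.71 TPM) and Fgfr2 (2.75 TPM) were low, and Fgfr3 was the higher in 5 libraries. Hgf, at 0.505 TPM, was below every other gene of the group in every library.

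**Figure D1:**
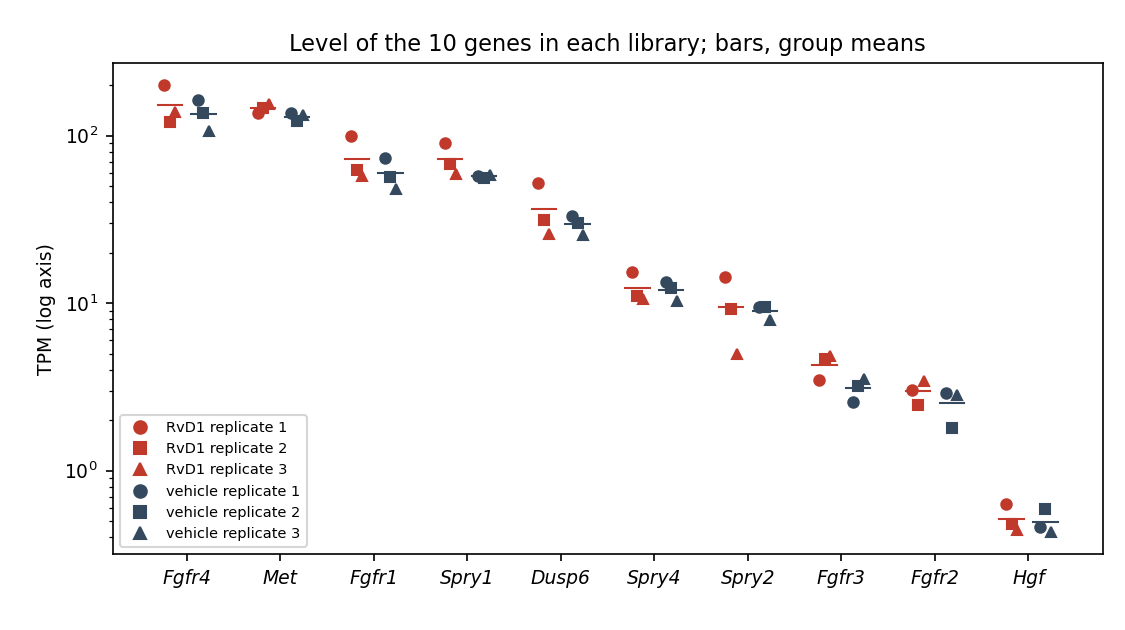
Level of each gene in TPM (log axis) in each of 3 RvD1 and 3 vehicle libraries, with horizontal bars at the group means and genes ordered by their mean over all libraries. Fgfr4 and Met lie above 100 TPM in every library and Hgf lies between 0.43 and 0.63 TPM.

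None of the 10 genes passed the test for a difference between RvD1 and vehicle. All 10 passed the count filter of edgeR's quasi-likelihood test, in which 0 of the 10 had a Benjamini-Hochberg adjusted p under 0.05, as did 0% of the 14494 genes tested. Without adjustment, 0 of the 10 had a p under 0.05, against 3.47% of all genes tested, and DESeq2 gave 0 of the 10 with or without adjustment. The log2 fold change was above 0 for 7 genes and below 0 for 3, with a median of 0.06 beside 0.01 over all genes, of which 53.5% were above 0. The direction of this count rested on RvD1 replicate 1. Without that library, 2 genes were above 0 and 8 below, with a median of −0.11, while 50.3% of all genes were above 0. In CPM (counts scaled to library size with TMM factors), the groups overlapped for all 10 genes, whereas they did not overlap for 9.62% of all genes tested.

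**Figure D2:**
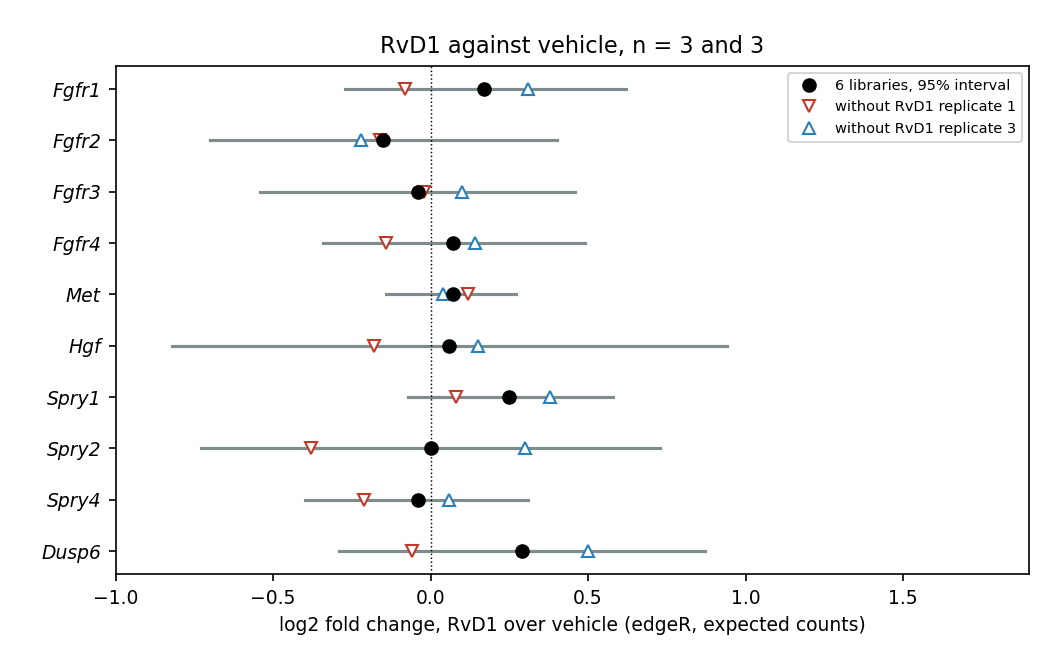
Log2 fold change of RvD1 over vehicle for each gene from edgeR on expected counts (filled circles, 3 against 3 libraries) with 95% intervals as lines, and the same value without RvD1 replicate 1 or without RvD1 replicate 3 (open triangles). Every interval includes 0, and the values without RvD1 replicate 1 lie below those from all libraries for 8 of the 10 genes.

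Among the FGF receptors, Fgfr4 and Fgfr1 made up nearly all of the transcripts in both groups. Fgfr4 contributed 65.6 ± 2.13% (SD, n = 3) of the summed FGF receptor TPM with RvD1 and 67.4 ± 1.18% with vehicle. Fgfr1 contributed 31.1 ± 2.56% with RvD1 and 29.7 ± 0.787% with vehicle. Fgfr2 and Fgfr3 contributed between 0.915% and 2.44% each in any library. These shares moved by a few percentage points between libraries, whereas the summed level ranged from 161 to 305 TPM.

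Fgfr4 (ENSMUSG00000005320; GRCm38 chromosome 13, 55152640 to 55168759, plus strand), the FGF receptor gene with the highest level in these cells, was at 199.7, 121, and 139 TPM in RvD1 replicates 1, 2, and 3 and at 164, 136, and 107 TPM in vehicle replicates 1, 2, and 3. RvD1 replicate 1 was the highest library and vehicle replicate 3 the lowest, and the other RvD1 libraries lay within the vehicle range. The log2 fold change was 0.07 (standard error 0.18, 95% interval −0.34 to 0.49; edgeR adjusted p = 0.977) and was −0.14 without RvD1 replicate 1. Fgfr1 (ENSMUSG00000031565; chromosome 8, 25513654 to 25575718, plus strand) was at 99.2, 62, and 57.6 TPM with RvD1 and at 73.8, 57, and 48 TPM with vehicle. Here too RvD1 replicate 1 was highest and vehicle replicate 3 lowest. For Fgfr1 the log2 fold change was 0.17 (standard error 0.20, 95% interval −0.27 to 0.62; edgeR adjusted p = 0.971), which turned to −0.08 without RvD1 replicate 1. Gm16159 overlaps Fgfr1 on the other strand, and the expected counts of Fgfr1 were not whole numbers in any of the 6 libraries.

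Fgfr2 and Fgfr3 had few reads, and their direction depended on the scale. Fgfr3 (ENSMUSG00000054252; chromosome 5, 33721674 to 33737068, plus strand) had 143, 225, and 95.1 expected counts with RvD1 and 101, 110, and 143 with vehicle. Its log2 fold change on counts was −0.04 (standard error 0.22, 95% interval −0.54 to 0.46; edgeR adjusted p = 0.992). In TPM, Fgfr3 was at 3.47, 4.63, and 4.81 with RvD1 and at 2.58, 3.2, and 3.54 with vehicle, a ratio of means of 1.39. The difference on log2(TPM + 1) was 0.37 (limma, unadjusted p = 0.0881, adjusted p = 0.893). Fgfr2 (ENSMUSG00000030849; chromosome 7, 130162451 to 133123350, minus strand, a model that spans many other genes) had between 54.3 and 83.3 expected counts per library. It was at 3.3, 2.96, and 3.61 CPM with RvD1 and at 4.21, 3.1, and 3.64 CPM with vehicle. Its log2 fold change was −0.15 (standard error 0.24, 95% interval −0.70 to 0.40; edgeR adjusted p = 0.971). In TPM the ratio of means was 1.18 in the other direction.

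TPM differs from CPM in the transcript length by which RSEM divides the counts and in a scaling of each library that all its genes share. Over all genes tested, the median difference between groups was 0.08 on log2(TPM + 1), beside 0.01 in the edgeR fit on counts. The edgeR fit without TMM factors gave 0.05. The median gene thus lay higher with RvD1 in TPM, although the TPM total was nearly the same in every library (996112 to 996309). The length can be read back from the expected counts and the FPKM values. For Spry1, Spry2, and Spry4 it was the same to within 10 bases in all libraries. For Fgfr3 it was 3172, 2785, and 1838 bases in the RvD1 libraries and 3931, 3048, and 3376 bases in the vehicle libraries. For Fgfr2 it was 1858, 1935, and 1776 bases with RvD1 and 2358, 2681, and 1967 bases with vehicle. The groups overlapped for Fgfr3 and did not overlap for Fgfr2, where RvD1 was lower, as was the case for 5.33% of 14417 genes. RSEM sets this length from the isoforms to which it assigns the reads, and the use of isoforms was not tested. This comparison was made after the values of both genes were seen.

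**Figure D3:**
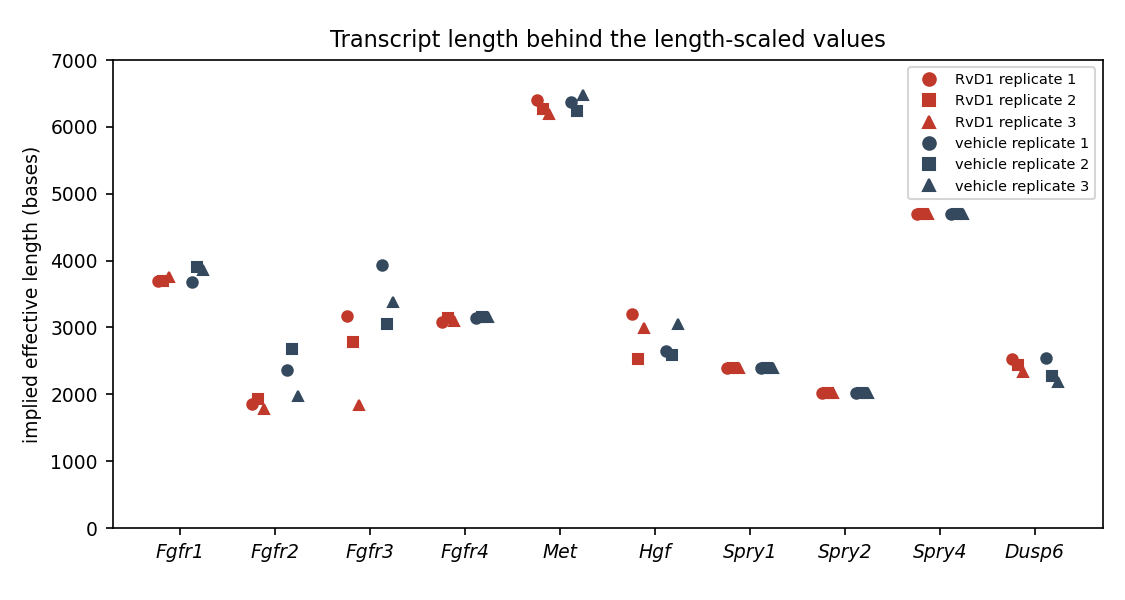
Effective transcript length in bases behind the TPM of each gene, computed from expected counts, FPKM, and library totals, for 3 RvD1 and 3 vehicle libraries. The points of Fgfr3 spread from 1838 to 3931 bases and those of Fgfr2 from 1776 to 2681 bases, whereas those of the 3 Sprouty genes coincide.

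The HGF receptor was abundant and the transcript of its ligand was scarce. Met (ENSMUSG00000009376; chromosome 6, 17463800 to 17573980, plus strand) was at 137, 147, and 155 TPM with RvD1 and at 136, 123, and 133 TPM with vehicle. Every RvD1 library was above every vehicle library on this scale, as for 8.89% of all genes tested. In CPM the groups overlapped, at 516, 574, and 574 with RvD1 and 534, 496, and 558 with vehicle. On counts its log2 fold change was 0.07 (standard error 0.09, 95% interval −0.14 to 0.27; edgeR adjusted p = 0.971), an interval that covers levels from 0.911 to 1.21 times that of vehicle. Of the 10 genes, Met varied least between libraries, with an SD of log2 CPM of 0.09 over the 6 libraries beside a median of 0.20 over all genes tested. In the limma-voom fit with 1 surrogate variable removed, run on 26518 genes, the difference of Met was 0.12 (limma, unadjusted p = 0.0509, adjusted p = 0.45). Of all genes in that fit, 11.2% had an unadjusted p under 0.05, against 3.47% in the edgeR fit.

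Hgf (ENSMUSG00000028864; chromosome 5, 16553495 to 16620152, plus strand) had 26, 21.4, and 14 expected counts with RvD1 and 12, 17, and 16 with vehicle. Its level (0.517 ± 0.1 TPM with RvD1, 0.493 ± 0.085 TPM with vehicle; SD, n = 3) was between 208 and 353 times lower than that of Met in the same library. The log2 fold change of 0.06 had a 95% interval from −0.82 to 0.94 (edgeR adjusted p = 0.992), which covers levels from 0.565 to 1.92 times that of vehicle. Gm43489 and Gm42975 overlap Hgf on its strand.

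Of the Sprouty genes, Spry1 was the main transcript and had the smallest p of the 10 genes. It contributed 77.1 ± 1.96% (SD, n = 3) of the summed Sprouty TPM with RvD1 and 73.2 ± 2.65% with vehicle. Spry1 (ENSMUSG00000037211; chromosome 3, 37639947 to 37644598, plus strand) was at 127, 100, and 84.4 CPM with RvD1 and at 84.9, 86.1, and 90.7 CPM with vehicle. The vehicle libraries were close together, whereas RvD1 replicate 1 was well above them and RvD1 replicate 3 just below them. Its TPM values were 90.3, 67.4, and 59 with RvD1 and 57.4, 55.7, and 58.5 with vehicle. Here the groups did not overlap, by a margin of less than 1 TPM. Every RvD1 library was above every vehicle library on this scale for 8.89% of all genes tested. On counts the log2 fold change was 0.25 (standard error 0.14, 95% interval −0.07 to 0.58; edgeR unadjusted p = 0.111, adjusted p = 0.971). It was 0.08 without RvD1 replicate 1 and 0.38 without RvD1 replicate 3 (edgeR unadjusted p = 0.0149, adjusted p = 0.788), and was above 0 under each of the 16 alternatives run. The noncoding gene Gm42922 overlaps Spry1 on the other strand.

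Spry2 showed the widest spread of the 10 genes. Spry2 (ENSMUSG00000022114; chromosome 14, 105891947 to 105896819, minus strand) was at 17, 11.6, and 5.99 CPM with RvD1 and at 11.9, 12.4, and 10.4 CPM with vehicle. RvD1 replicate 1 was above and RvD1 replicate 3 below all vehicle libraries, a 2.83-fold range within the RvD1 group against 1.19-fold within the vehicle group. The mean was 11.5 CPM in both groups, and the 95% interval of the log2 fold change ran from −0.73 to 0.73 (edgeR adjusted p = 0.999). Without RvD1 replicate 1 the log2 fold change was −0.38, and without RvD1 replicate 3 it was 0.30. Spry4 (ENSMUSG00000024427; chromosome 18, 38586247 to 38601415, minus strand) was at 42.5, 32.4, and 29.6 CPM with RvD1 and at 38.8, 37.4, and 31.4 CPM with vehicle. Its log2 fold change was −0.04 (standard error 0.16, 95% interval −0.40 to 0.31; edgeR adjusted p = 0.988), and RvD1 replicates 1 and 3 again lay at the upper and lower ends.

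Dusp6 (ENSMUSG00000019960; chromosome 10, 99263231 to 99267489, plus strand) had the largest fold change of the 10 genes and also a wide spread. It was at 77.1, 47.9, and 36.2 CPM with RvD1 and at 51.7, 44.3, and 36.2 CPM with vehicle. RvD1 replicate 1 was above all vehicle libraries, and the other RvD1 libraries were within their range. Its log2 fold change was 0.29 (standard error 0.26, 95% interval −0.29 to 0.87; edgeR adjusted p = 0.971). It was −0.06 without RvD1 replicate 1 and 0.50 without RvD1 replicate 3 (edgeR unadjusted p = 0.0527, adjusted p = 0.788). The ratio of Dusp6 to Fgfr1 in TPM was 0.495 ± 0.0388 (SD, n = 3) under RvD1 and 0.502 ± 0.0483 under vehicle, a difference smaller than the spread between replicates.

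Most of the 10 genes were highest in the same library. Fgfr1, Fgfr4, Hgf, Spry1, Spry2, Spry4, and Dusp6 had their highest log2 CPM in RvD1 replicate 1, which was the highest library for 30.6% of all genes tested. Relative to the mean of each gene, RvD1 replicate 1 was higher by 0.71 for Dusp6, 0.62 for Spry2, 0.52 for Fgfr1, 0.43 for Spry1, and 0.40 for Fgfr4 (log2 CPM), and was at −0.07 for Met. RvD1 replicate 3 was the lowest library for Fgfr3, Spry1, Spry2, and Spry4, and vehicle replicate 3 for Fgfr1, Fgfr4, and Dusp6. The SD of log2 CPM was larger among RvD1 than among vehicle libraries for 9 of the 10 genes, Fgfr2 being the exception, and for 69.6% of all genes tested. The profiles over the 6 libraries were most alike for Fgfr1 and Fgfr4, with a root-mean-square difference of 0.098 log2 units after the mean of each gene was subtracted, followed by Fgfr1 and Dusp6 (0.113). They were least alike for Fgfr2 and Spry2 (0.51).

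**Figure D4:**
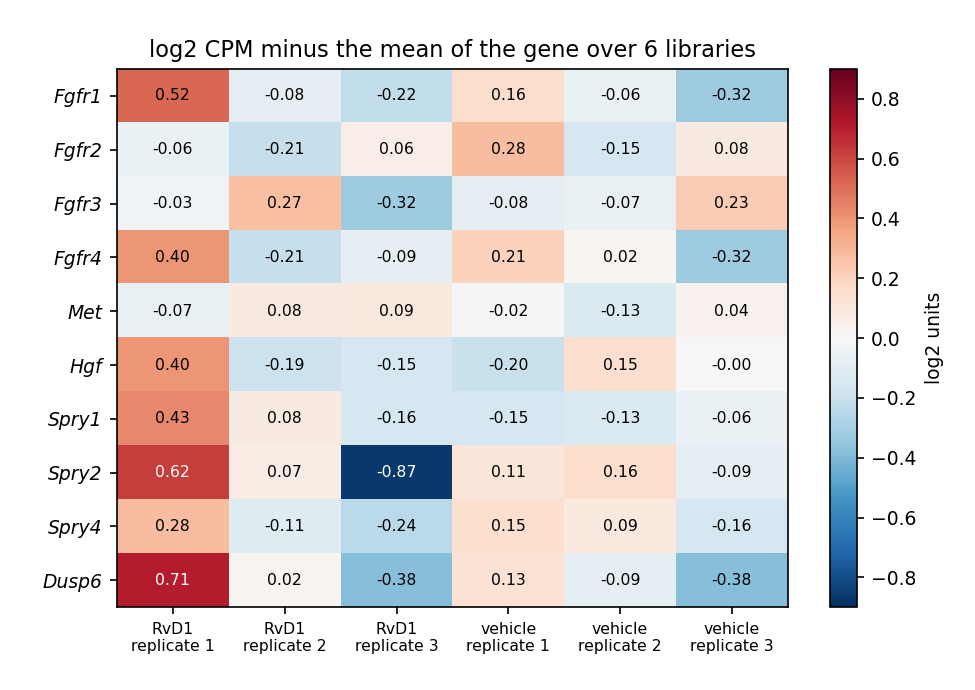
Log2 CPM of each gene in each of the 6 libraries minus the mean of that gene over the libraries, written in each cell and shown as color from blue (lower) to red (higher). The column of RvD1 replicate 1 is at 0.28 or more for 7 genes, and Met stays between −0.13 and 0.09 in all libraries.

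RvD1 replicate 1 also stood apart in other transcripts. The summed level of 8 fibro-adipogenic genes was 545 TPM there and 239 and 350 TPM in the other RvD1 libraries, which owed most to Dcn at 450.3 TPM. Not all genes of this list were high there. Ly6a was at 25.4 TPM there and at 26.3 to 39.7 TPM with vehicle, and Col15a1 at 1.4 TPM and 1.56 to 2.32 TPM. The summed level of 5 pericyte and smooth muscle genes was 67.5 TPM there, 31.7 and 46.8 TPM in the other RvD1 libraries, and 27.2 to 32.6 TPM with vehicle. That of 3 Schwann cell genes was 32.9 TPM there and 10.2 to 18.4 TPM in the other 5 libraries. The sum of 6 proliferation genes was lowest there, at 1040 TPM against 1330 to 1490 TPM elsewhere. All 10 macrophage genes had a log2 fold change below 0, and 0 of them had an adjusted p under 0.05 in edgeR. Of the fibro-adipogenic genes, 5 of the 7 tested were above 0, as were all 5 pericyte and 3 Schwann cell genes, whereas all 6 proliferation genes and 5 of the 6 endothelial genes were below 0, and 0 of these had an adjusted p under 0.05. No gene of these lists was at 0 in every library except the 3 neutrophil genes above. RvD1 replicate 3 was the lowest library for Fgfr3 and the Sprouty genes in CPM. In TPM it was the lowest only for Spry2, and was the highest for Fgfr3 (4.81 TPM). It was also the highest library for genes of differentiating muscle cells. Of 7 such genes 5 were found by symbol, and their sum was 2570 TPM there, 1480 and 1770 TPM in the other RvD1 libraries, and 1510 to 1850 TPM with vehicle. Among them Myog, a factor of myogenic differentiation, was at 1378 TPM there and at 818 to 974 TPM elsewhere. The part of these cells, of proliferation, and of differentiation in the values of RvD1 replicates 1 and 3 was not tested.

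For each of the 10 genes, the other tested gene with the most similar profile over the 6 libraries was found. For Fgfr4 it was Tctn2, a gene of the primary cilium (root-mean-square difference 0.009 log2 units), and for Fgfr1 it was Ghr, the growth hormone receptor (0.037). For Met it was Uba6, a ubiquitin-activating enzyme (0.013). For Spry1 it was Ppm1k (0.033), for Spry4 Bbs4 (0.027), for Spry2 D730003I15Rik (0.081), and for Dusp6 Gm16907 (0.051). For Fgfr2, Fgfr3, and Hgf they were Ntpcr (0.022), Lsm5 (0.04), and Tmem14a (0.06). The profiles were compared over 6 libraries and 14494 genes, and the names are given as a description.

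The rest of the pathway was read from a list of 87 genes, of which 67 were tested. None had an adjusted p under 0.05 in edgeR, 1 had an unadjusted p under 0.05 (3.47% of all genes tested did), and DESeq2 called none of all genes tested. Log2 fold changes were above 0 for 50 genes and below 0 for 17, with a median of 0.07, whereas 53.5% of all genes tested were above 0. Without RvD1 replicate 1, 38 were above 0 and 29 below, beside 50.3% of all genes above 0. Without RvD1 replicate 2, 39 were above 0 and 28 below, beside 52.7% of all genes above 0. With any other library left out, 45 to 48 were above 0, beside 51.8% to 53.7% of all genes. The highest log2 CPM was in RvD1 replicate 1 for 28 of the 67 genes. By sub-list these were 2 of 10 genes of the FGF family, 0 of 3 co-receptors, and 3 of 4 genes of HGF activation. They also were 5 of 13 adaptors, 2 of 12 RAS-ERK genes, 7 of 12 feedback genes, and 9 of 13 genes that respond to ERK. Over all genes tested the share was 30.6%.

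Of 22 genes of the FGF family, 10 were tested and 5 (Fgf3, Fgf6, Fgf10, Fgf20, and Fgf23) were at 0 counts in every library. Fgf21, an endocrine FGF, had the highest level, at 26.9, 62.1, and 48.7 TPM with RvD1 and 44.2, 54.5, and 42.6 TPM with vehicle (log2 fold change −0.11, standard error 0.28). Its lowest level was in RvD1 replicate 1. Fgf2, a mitogen of MuSCs in culture, was at 1.2 ± 0.624 TPM under RvD1 and 0.937 ± 0.49 TPM under vehicle (SD, n = 3; log2 fold change 0.47, standard error 0.39). Among co-receptors and decoys, Fgfrl1, a receptor without a kinase domain, was at 22.8 ± 4.75 TPM under RvD1 and 21.2 ± 0.919 TPM under vehicle. Among genes that activate or inhibit HGF, 4 were tested and all 4 had a log2 fold change above 0, as did 53.5% of all genes tested. Without RvD1 replicate 1, 1 of them was above 0 and 3 were below. The highest with all libraries was 0.32 (standard error 0.24) for Plat, which encodes a plasminogen activator. Plat was at 68.6 TPM in RvD1 replicate 1 and at 29.8 to 38.6 TPM in the other 5 libraries.

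Levels of adaptor and RAS-ERK genes covered a wide range, and 0 of the 13 adaptor and 12 RAS-ERK genes tested had an adjusted p under 0.05. Log2 fold changes were above 0 for 11 adaptor and 8 RAS-ERK genes, and for 53.5% of all genes tested. Without RvD1 replicate 1 they were above 0 for 10 adaptor and 10 RAS-ERK genes, and for 50.3% of all genes. Crk, an adaptor, was at 172 ± 3.52 TPM under RvD1 and 153 ± 9.72 TPM under vehicle (SD, n = 3). On counts, its log2 fold change was 0.07 (standard error 0.08). For Araf, a RAF kinase, it was 0.18 (standard error 0.11). Frs3, an adaptor of FGF receptors, was at 1.26, 0.63, and 1.51 TPM with RvD1 and at 0.48, 0.67, and 0.35 TPM with vehicle (log2 fold change 0.98, standard error 0.48, edgeR adjusted p = 0.971).

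Among 12 tested feedback genes beyond the group, Spred3, a relative of the Sprouty genes, had the only unadjusted p under 0.05 of the list (log2 fold change 1.12, standard error 0.43, edgeR unadjusted p = 0.0288, adjusted p = 0.971). It was at 2.15, 1.31, and 0.4 TPM with RvD1 and at 0.38, 0.34, and 0.3 TPM with vehicle. Its level was low, and every RvD1 library was above every vehicle library in TPM, RvD1 replicate 3 by a small margin. The same held for 8.89% of all genes tested. Errfi1, an inhibitor of EGF receptor signaling, was the most abundant, at 703.7, 266, and 237 TPM with RvD1 and 422, 285, and 189 TPM with vehicle, again highest in RvD1 replicate 1. Of 13 genes that respond to ERK (transcription factors and the cyclin Ccnd1), 10 had a log2 fold change above 0, as did 53.5% of all genes tested. Without RvD1 replicate 1 the number was 2, beside 50.3% of all genes. Fos was at 549, 272, and 501 TPM with RvD1 and 309.5, 332, and 339.8 TPM with vehicle (log2 fold change 0.33, standard error 0.21), with the RvD1 libraries on both sides of the vehicle range.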

How the data were processed

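Reads (76 bp, single-ended, SMART-Seq v4 and Nextera XT libraries) were aligned by the authors to mm10 with STAR 2.5.0a and quantified per gene with RSEM. Expected counts, as deposited, are unscaled estimates. TPM and FPKM, as deposited, are scaled for library size and transcript length. A stray header row was removed. Reads were counted without molecular identifiers, and the methods call the data single-stranded without saying whether RSEM used strand.

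Counts were rounded and tested with edgeR 4.0.16 in R 4.3.3 (TMM, filterByExpr, quasi-likelihood test, Benjamini-Hochberg over 14494 genes, threshold 0.05). Log2 CPM used a prior count of 2. Levels between genes were compared in TPM. Alternatives were DESeq2 1.42.0, limma 3.58.1 on voom values, limma on voom values of the 26518 genes with an expected count of 1 or more in any library after removal of 1 surrogate variable with sva 3.50.0 (the procedure of the study, which states no filter), other scaling factors, no count filter, a replicate block, TPM with a pseudocount of 1 or 0.1, and each replicate left out. Gene positions came from GENCODE M21 on GRCm38.

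The 10 genes and the lists were chosen with earlier results of these data known. Named pathway genes were, per sub-list, the tested gene with the smallest p and the one with the highest TPM. Of these, 1 is not reported here.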

Additional observations from a re-analysis of the deposited data

How the results depend on the processing

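Over 16 alternatives, 125 of 160 log2 fold changes of the 10 genes kept their direction, 35 changed it, and 0 passed the adjusted p threshold. Met and Spry1 kept their direction in all 16. The number of genes called, 0 in edgeR with its count filter, was 12 without the filter and 0 to 1 with a replicate left out (1 without RvD1 replicate 3), none of them among the 10. The number of the 10 with an unadjusted p under 0.05 was 0 to 1 with a replicate left out, the 1 being Spry1 without RvD1 replicate 3. The share of all genes tested was 4.61% in that fit, and 1.9% to 6.83% over the fits with a replicate left out. With a replicate left out, log2 fold changes ranged from −0.08 to 0.31 for Fgfr1, −0.14 to 0.20 for Fgfr4, −0.21 to 0.10 for Fgfr3, −0.18 to 0.18 for Hgf, −0.38 to 0.30 for Spry2, −0.21 to 0.06 for Spry4, and −0.06 to 0.50 for Dusp6. The lowest value came without RvD1 replicate 1 for all of these but Fgfr3 (without RvD1 replicate 2). On log2(TPM + 1), log2(TPM + 0.1), and log2(TPM + 1) without a filter, Fgfr2 was at 0.19, 0.25, and 0.19, Fgfr3 at 0.37, 0.45, and 0.37, Spry4 at 0.03 in each, and Spry2 at −0.03, −0.04, and −0.03. Spry2, at 0.00 in the edgeR fit, was at −0.01 with DESeq2 and with RLE factors, −0.05 with limma-voom, −0.16 with a surrogate variable removed (a fit that also kept 26518 genes in place of 14494), and −0.004 without a count filter. In those limma-voom fits Fgfr3 was at 0.01 and 0.02, and Hgf was at −0.01 with the surrogate variable removed. The cause of these changes was not tested.

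Both groups use replicate numbers 1 to 3, for different mice. After subtraction of the group means, libraries with the same number had correlations across genes of 0.31, −0.001, and 0.126. Libraries with different numbers were not compared, so these values do not decide whether the numbers pair the mice. The main fit used no pairing. With the replicate number as a block, 0 of the 10 and 0 of all genes had an adjusted p under 0.05, and Spry2 was at −0.10. The block gave 896 genes with an unadjusted p under 0.05, against 503 without it. Standard errors fell with the block for, among others, Fgfr1 (0.20 to 0.10) and Dusp6 (0.26 to 0.13). They rose for Fgfr2, Fgfr3, and Hgf (0.39 to 0.45 for Hgf).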
